A study of Drosophila melanogaster with 6 samples.

Results

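The genes described here are uncharacterised genes of Drosophila melanogaster, known only by a CG number, whose arrays showed more RNA in the body wall part of the wing imaginal disc than in its wing and hinge part. A probe set, the group of short probes that reads 1 transcript on an Affymetrix array, was taken as a member if its single annotated gene symbol was CG followed by digits alone, if the lowest of its 3 body wall intensities was at least 100, and if that value was at least 1.5 times the highest of its 3 wing/hinge intensities. Of 13966 fly probe sets, 4911 carried such a symbol and 31 met the rule, for 29 genes. The members were thus chosen by their intensities on all 6 arrays, so their difference between the fragments is given below as a description, with no test.

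The body wall fragment (3 arrays) was set against the wing/hinge fragment (3 arrays), both cut from wing discs of wild-type larvae of the third instar. No allele, agent or stock beyond wild type is named in the labels, which call the samples biological replicates and the study a screen for RNAs confined to regions of the disc. Total RNA was hybridised, and the deposited values are intensities on a linear scale. The labels give body wall 1 and body wall 2 related aliases, so a repeat of the same RNA was not told apart from a separate dissection.

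The wing disc is a sac of epithelium that forms the adult wing, its hinge and the notum, the back of the thorax. Adult muscle precursors and tracheal branches adhere to the notum part of the sac and can be cut away with it, so a body wall fragment is a mixture of cell types. A CG number is the identifier that the genome project gave to a gene predicted from sequence, and it stays in use until a gene receives a name. The RefSeq gene table used for names still lists all 29 genes under their CG numbers. It gives synonyms of a named kind for CG9737, which it also lists as SP5 and cSP5. No function is assigned to the other members in the sources used here, and none is given below.

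The arrays were even in overall level, with median intensities of 89.75 to 117.8. Probe sets for RNA of other species (bacteria, yeast and mouse) served as controls, with 55.1 as their 95th percentile and 91.8 as their highest value, so intensities in that range are close to background. Marker genes from textbook knowledge, each read by the probe set of highest mean log2 intensity, were set against the labels. Of 12 notum patterning genes tested, 4 were higher in body wall and 0 in wing/hinge, with a median log2 difference of 1.30 (8 and 0 at an unadjusted limma p under 0.05). Of 9 wing pouch genes tested, 0 were higher in body wall and 5 in wing/hinge, with a median of -3.97 (1 and 6 at that unadjusted p). The gene tup was read in this list by 141873_at and was not called, while its dimmer probe set 142284_at had a ratio of lowest body wall to highest wing/hinge value of 27.74. The median over all 11698 probe sets tested was 0.03, and 0.915% of them were called in either direction and 0.59% higher in body wall (limma, Benjamini-Hochberg adjusted p under 0.05). In bulk tissue, fewer cells of a type and less RNA per cell cannot be told apart.

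CG15353 stood apart from the other members. Its probe set 151195_i_at read 16589, 8604 and 9643 on body wall arrays 1, 2 and 3, against 797.9, 630.9 and 715.8 on the wing/hinge arrays. A further probe set, 151196_r_at, read 11784, 7493 and 7989 in body wall, against 811.2, 464.7 and 855.1 in wing/hinge. On both, the lowest body wall value was far above the highest wing/hinge value, by 10.78 and 8.76 times, and body wall 1 was the highest array. The log2 differences, body wall minus wing/hinge, were 3.97 (SE 0.31) and 3.70 (SE 0.33). The wing/hinge values of 151195_i_at and 151196_r_at were also well above the control probe sets, so both fragments gave signal. Whether all of it came from CG15353 was not tested. The gene overlaps an antisense RNA gene, and the strand that each probe set reads is not given. These 2 probe sets read the same gene on the same arrays and may share probes, so they are not independent readings. The preceding number, 151194_r_at, reads the neighbouring gene Nplp4, and probes shared with it were not looked for.

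**Figure D1:**
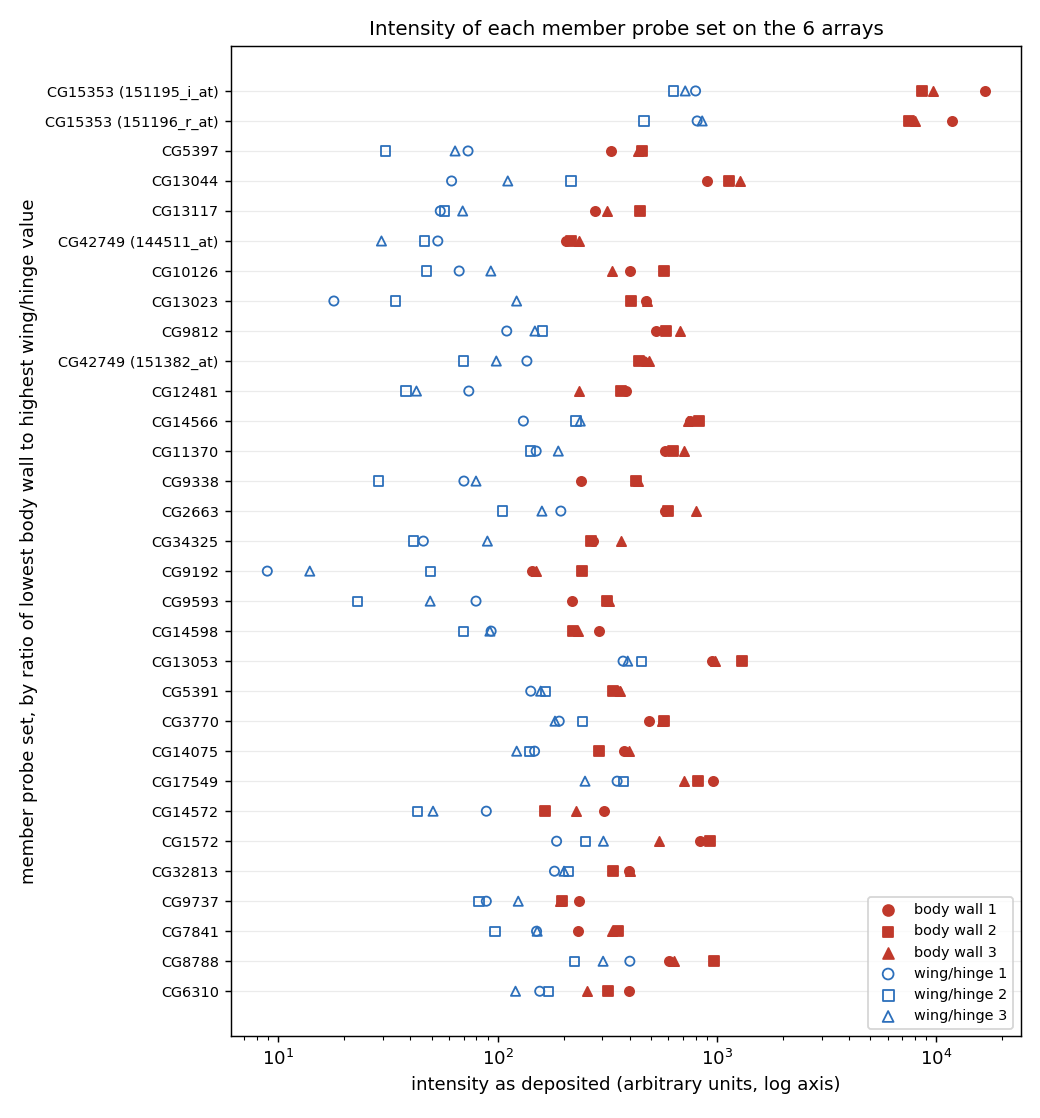
Deposited intensity (log axis) of each of the 31 member probe sets on the 3 body wall arrays (filled red) and the 3 wing/hinge arrays (open blue), ordered by the ratio of the lowest body wall to the highest wing/hinge value. CG15353 lies far to the right of the other members, and body wall and wing/hinge points do not overlap in any row because the rule requires a gap of 1.5 times.

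The next members by that ratio were CG5397, CG13044 and CG13117. CG5397 read 329.4, 453.9 and 433.9 in body wall, against 73.2, 30.8 and 63.9 in wing/hinge, a ratio of 4.50 between the nearest values. CG13044 read 897.8, 1132 and 1271 in body wall, against 61.6, 215.8 and 111.1 in wing/hinge, where its coefficient of variation was 60.8%. CG13117 read 276.9, 444.6 and 313.7 in body wall, against 54.7, 57.4 and 69.2 in wing/hinge. For CG5397 and CG13117 the wing/hinge values lay in the range of the control probe sets, and for CG13044 wing/hinge 2 and 3 lay above it. The log2 differences of CG5397, CG13044 and CG13117 were 2.94 (SE 0.37), 3.26 (SE 0.46) and 2.49 (SE 0.26).

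CG13023 had the widest spread in wing/hinge of all members. It read 472.5, 405.5 and 480.5 in body wall, against 17.9, 34.2 and 121.9 in wing/hinge, and its wing/hinge coefficient of variation was 96.4%. Its body wall arrays lay close together and its wing/hinge 3 array was the only one above the control range. The log2 difference of 3.36 (SE 0.62) therefore moves with the wing/hinge array used. CG9192 showed a like spread at a lower level, at 142.6, 243.0 and 148.7 in body wall, against 8.9, 49.3 and 13.9 in wing/hinge. All 3 of its wing/hinge values were under the 95th percentile of the control probe sets. For these 2 members, 1 and 2 wing/hinge values lay under the floor of 20.4 that is set before logarithms are taken, so their log2 differences (2.66, SE 0.43, for CG9192) are understated.

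CG10126, CG9812, CG12481 and CG11370 had nearest values at least 3 times apart. CG10126 read 401.0, 570.2 and 332.6 in body wall, against 66.7, 47.5 and 93.0 in wing/hinge. CG9812 read 524.5, 582.7 and 677.9 in body wall, against 109.9, 160.1 and 147.7 in wing/hinge. CG12481 read 384.3, 363.7 and 234.6 in body wall, against 73.8, 38.2 and 42.6 in wing/hinge. Among the body wall arrays the coefficient of variation was 28.1% for CG10126, 13.0% for CG9812 and 24.8% for CG12481. CG11370 read 575.9, 630.8 and 706.4 in body wall, against 149.7, 140.6 and 188.8 in wing/hinge, above the control range on every array. The log2 differences of these genes were 2.67 (SE 0.34), 2.11 (SE 0.25), 2.70 (SE 0.35) and 2.00 (SE 0.23).

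Between a ratio of 2 and 3 lay 9 probe sets, among them CG9338, CG2663, CG9593 and CG14598. CG9338 read 238.6, 428.3 and 434.5 in body wall, against 70.1, 28.5 and 79.6 in wing/hinge. CG2663 read 578.8, 596.4 and 797.3 in body wall, against 193.9, 105.1 and 159.0 in wing/hinge. CG9593 read 218.3, 316.0 and 322.3 in body wall, against 79.6, 23.0 and 49.2 in wing/hinge. Body wall 1 was the lowest body wall array for all of these 3 genes. CG14598 read 288.3, 221.2 and 231.3 in body wall, against 93.3, 69.7 and 92.1 in wing/hinge, and there body wall 1 was the highest. The log2 differences of CG9338, CG2663, CG9593 and CG14598 were 2.71 (SE 0.46), 2.14 (SE 0.30), 2.65 (SE 0.47) and 1.54 (SE 0.24).

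CG13053, CG5391 and CG3770 were measured well above background in both fragments. CG13053 read 951.3, 1299 and 977.9 in body wall, against 372.7, 451.5 and 391.4 in wing/hinge. CG5391 read 351.5, 335.0 and 360.2 in body wall, against 141.4, 165.5 and 156.9 in wing/hinge. CG3770 read 489.5, 574.6 and 561.6 in body wall, against 190.7, 242.5 and 182.4 in wing/hinge. For CG5391 the body wall arrays lay closest together of any member, with a coefficient of variation of 3.67%. It was 8.46% for CG3770 and 18.0% for CG13053. Their log2 differences were 1.40 (SE 0.24), 1.18 (SE 0.21) and 1.41 (SE 0.23), smaller than those of CG13023 and CG9192 and with smaller SEs.

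The members with a ratio under 2 were 9 probe sets, all of different genes. CG14075 read 376.9, 288.1 and 397.2 in body wall, against 147.2, 140.1 and 122.0 in wing/hinge. CG17549 read 957.9, 819.5 and 709.1 in body wall, against 350.1, 375.6 and 250.0 in wing/hinge. CG1572 read 837.4, 924.5 and 543.5 in body wall, against 185.5, 250.6 and 303.2 in wing/hinge. These 3 were again above the control range on every array, with log2 differences of 1.37 (SE 0.24), 1.36 (SE 0.26) and 1.63 (SE 0.31). CG9737, listed also as SP5, read 234.5, 196.3 and 193.1 in body wall, against 88.7, 82.2 and 124.0 in wing/hinge (log2 difference 1.10, SE 0.25).

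At the ratio of 1.5 the members passed into genes left out by small margins. Just inside were CG6310 (398.7, 319.8 and 255.9 in body wall, against 155.4, 169.7 and 120.5 in wing/hinge), CG8788 (604.1, 970.1 and 634.0, against 400.2, 224.3 and 302.2) and CG7841 (232.8, 352.6 and 332.3, against 150.3, 97.1 and 151.3). Their ratios were 1.51, 1.51 and 1.54. Just outside, at 1.49, 1.48 and 1.43, were CG9747 (462.3, 461.0 and 429.1 in body wall, against 164.2, 164.7 and 288.5 in wing/hinge), CG7860 (1158, 1340 and 1404, against 650.3, 451.1 and 782.4) and CG14830 (362.6, 286.6 and 335.4, against 200, 184.1 and 154.5). The gap in ratio between the genes inside and outside is small beside the spread of the arrays of any of the 6. At the level of 100 the lowest members were CG9192, CG14572 and CG9737, with lowest body wall values of 142.6, 163.5 and 193.1. Just under it were CG8501, CG6005 and CG17646, with lowest values of 96.3, 95.2 and 94.0.

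**Figure D2:**
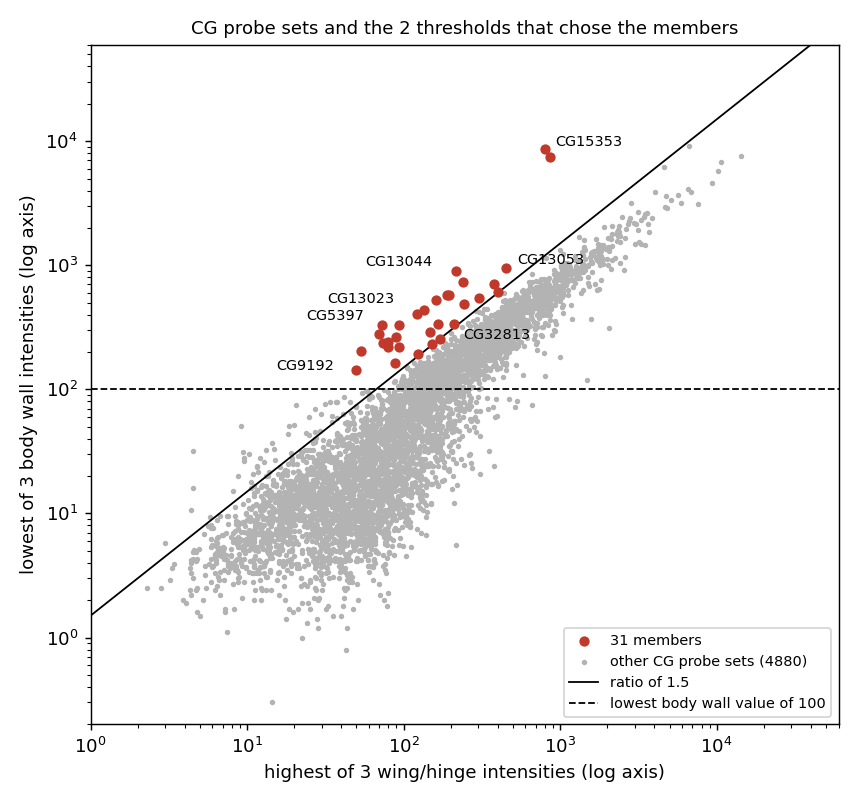
Lowest of the 3 body wall intensities against the highest of the 3 wing/hinge intensities for all 4911 CG probe sets (log axes), with lines at a ratio of 1.5 and at a lowest body wall value of 100. The 31 members (red) lie above both lines, the 2 CG15353 probe sets far from the other points and CG32813, at 1.6, close to the line.

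Some member genes had more than 1 probe set, and the values of each are given here. CG42749 was a member through both of its probe sets. Probe set 144511_at read 204.6, 216.7 and 235.8 in body wall, against 53.3, 46.3 and 29.5 in wing/hinge, and 151382_at read 461.3, 439.8 and 490.7, against 135.8, 70.0 and 98.5. Their log2 differences of 2.39 (SE 0.28) and 2.24 (SE 0.29) differed by less than either SE. Each had to pass the rule on the same arrays, so nothing is read from this likeness. The gene table lists CG15785 and CG15786 as earlier names of this gene.

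Besides CG15353, whose 2 probe sets were both members, CG34325 and CG32813 had several probe sets, of which 1 each was a member. CG34325 read 271.3, 265.8 and 365.9 in body wall, against 45.8, 41.2 and 89.7 in wing/hinge, at its member probe set (log2 difference 2.43, SE 0.35). Probe set 145205_at of the same gene read 111.2, 160.5 and 220.0, against 71.6, 105.5 and 81.6 (log2 difference 0.89, SE 0.32). The difference at the member probe set was the larger by more than both SEs together. The rule chose that probe set for its gap on these arrays and left 145205_at out, so nothing is read from this. CG32813 read 395.1, 334.7 and 401.1 in body wall, against 181.4, 209.4 and 200.5 in wing/hinge, at its member probe set, with the smallest log2 difference of all members (0.93, SE 0.21). At its 3 dimmer probe sets the log2 differences were 0.84 (SE 0.33), 1.27 (SE 0.44) and 1.05 (SE 0.61), and values of the fragments overlapped at 2 of them. All of the further probe sets lay toward body wall, on the same arrays.

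The position of the members among other genes was not used by the rule. Gene order was read from the RefSeq table (assembly Release 6), in which all 29 genes were found, and coordinates are not given because the files name no genome build. CG14566 and CG14572 were direct neighbours and the only members next to another gene that met the rule, whatever its name, when 2 protein-coding genes on each side were looked at. That is 2 of 29 genes (6.90%), beside 47 of 1557 CG genes whose lowest body wall value reached 100 (3.02%). With 1 gene on each side the shares were 6.90% and 1.35%. Since the members count among the 1557 and the pair is a single event, these shares are a description of 1 locus.

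At that locus the values were as follows. CG14566 read 755.2, 824.2 and 738.0 in body wall, against 130.9, 227.5 and 237.8 in wing/hinge (log2 difference 2.01, SE 0.29). CG14572 read 306.1, 163.5 and 227.0 in body wall, against 88.7, 43.0 and 50.7 in wing/hinge (log2 difference 1.96, SE 0.37). The body wall values of CG14566 were even and those of CG14572 ran over a range of 1.87 times. On the other side of CG14566 lies CG14567, which was chosen for mention after its values were seen. It read 145.1, 79.2 and 165.1 in body wall, against 16.9, 34.0 and 23.8 in wing/hinge (log2 difference 2.28), and missed the rule by its level alone. The flanking CG14573 and CG14565 gave log2 differences of 0.47 and 0.84 at low intensities, with overlapping fragments. The log2 differences of these 3 adjacent CG genes were of like size. The rule requires that CG14566 and CG14572 have no overlap between the fragments, and CG14567 was picked on its values. Over all probe sets tested, 8.48% had every body wall value above every wing/hinge value, so the run of genes is a description only.

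**Figure D3:**
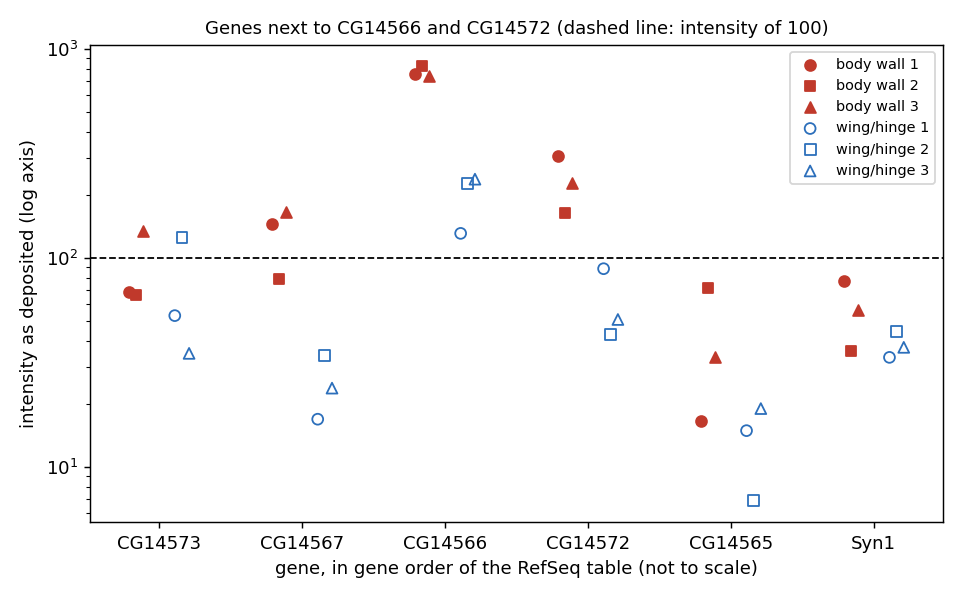
Deposited intensity (log axis) on the body wall arrays (filled red) and the wing/hinge arrays (open blue) for 6 adjacent genes in the order of the RefSeq table, with a dashed line at 100. CG14567, CG14566 and CG14572 show no overlap between the fragments, which the rule requires of the members CG14566 and CG14572, while CG14573, CG14565 and Syn1 overlap.

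Neighbours of the other members mostly gave small differences. Next to CG15353, the neuropeptide-like precursor gene Nplp4 read 4098, 3037 and 2942 in body wall, against 2389, 2716 and 2237 in wing/hinge (log2 difference 0.44), and CG33543 was under the floor on every array. Next to CG13023, CG11905 read 699.3, 602.6 and 699.9 in body wall, against 1356, 1010 and 904.4 in wing/hinge, the opposite direction. Next to CG9192, the mitotic kinesin gene Klp61F read 1719, 2072 and 2019 in body wall, against 3393, 3126 and 2606 in wing/hinge, and so also lay toward wing/hinge. CG10126 lies beside beat-Va, of the Beat immunoglobulin family of axon guidance genes, which gave 0.43 at values near background. CG9338 had the neighbours bero, at 1.47 with overlapping fragments, and CG14401, which read 197.7, 162.1 and 162.3 in body wall, against 56.0, 98.8 and 115.8 in wing/hinge, both toward body wall. Over all 64 non-member neighbours tested, the median log2 difference was 0.17, 7 (10.9%) lay at 1 or more and 0 at -1 or less. Over the 3602 non-member neighbours of all CG genes at this level, the median was 0.03, 3.80% lay at 1 or more and 2.14% at -1 or less. Every body wall value was above every wing/hinge value for 5 of the 64 (7.81%), beside 8.41% of the 3602 and 8.48% of all probe sets tested. The neighbours of members thus held a larger share at 1 or more than those of all CG genes at this level, which include the members. They did not hold a larger share with no overlap, and neither difference was tested. CG14567, picked above on its values, is among the 7.

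Overlapping genes can share signal where a probe set does not tell strands apart. In the table, 8 member genes shared part of their span with another protein-coding gene, 3 only with an antisense RNA gene (CG15353, CG13044 and CG9593), and 18 with no other gene. Where the overlapping coding gene had its own probe set, it gave smaller differences. For example, Nckx30C, a sodium/calcium exchanger gene that overlaps CG13117, read 109.2, 72.1 and 38.6 in body wall, against 117.5, 25.3 and 20.1 in wing/hinge. CG3323 and CG17764, which overlap CG42749, gave log2 differences of -0.20 and 0.61. Which strand each probe set reads is not given in the sources used here.

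Set among all genes that met the same rule, the members were a part of the list but seldom at its head. The rule was met by 125 fly probe sets of any name (0.895% of 13966), of which 114 had 1 gene symbol, 31 of them CG members and 83 otherwise named. By ratio of nearest values, the 5 highest were the LIM homeobox gene tup, the mesodermal factor gene twi, the GATA factor gene pnr, the muscle differentiation inhibitor gene Him and the peptidase gene Ance, followed by CG15353. CG15353 supplied both members among the 20 highest ratios, and 17 members were among the 50 highest. CG probe sets made up 27.2% of the 114, beside 29.7% of the 5462 1-symbol probe sets whose lowest body wall value reached 100. The share was thus near that of the array at this level.

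**Figure D4:**
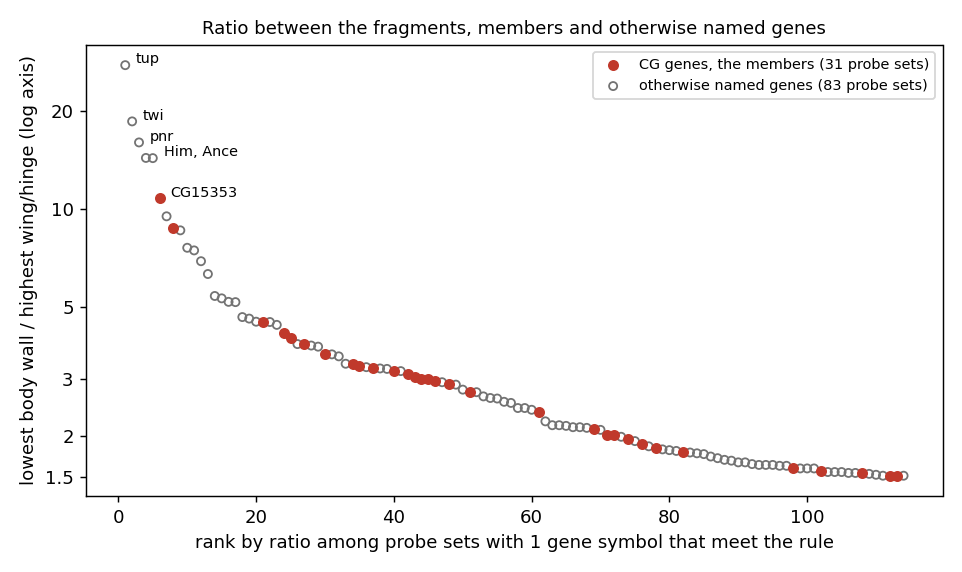
Ratio of the lowest body wall to the highest wing/hinge intensity (log axis) against rank, for the 114 probe sets with 1 gene symbol that met the rule. Red points are the 31 CG members and open points the 83 otherwise named probe sets, with CG15353 at 10.78 the only CG gene above a ratio of 5.

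The mirrored rule, with wing/hinge as the higher fragment, gave fewer CG genes. It was met by 17 CG probe sets of 17 genes, 1.08% of the 1569 whose lowest wing/hinge value reached 100. All 1-symbol probe sets were fewer too, at 78 under the mirrored rule and 114 in body wall, and CG probe sets were 21.8% of the 78. The body wall members were 1.91% of the 1622 CG probe sets at that level in body wall. Among otherwise named probe sets the body wall share was 2.16% of 3840. No test of these counts was made, because probe sets of a fragment share the same 3 arrays.

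In the fit across all probe sets, 15 of the 31 members were called higher in body wall, beside 0.59% of all probe sets tested (limma, Benjamini-Hochberg adjusted p under 0.05). The rule used the same arrays and the same contrast, so nothing is read from that count. It also moved by over 1.5 times in every fit without 1 array, to 3, 2 and 2 without body wall 1, 2 or 3 and to 5, 5 and 8 without wing/hinge 1, 2 or 3. Among members, 18 probe sets had a fitted difference of at least 4-fold, 12 of 2-fold to 4-fold and 1, CG32813, under 2-fold. The uncalled members included CG13023, CG9338, CG9192 and CG9593, whose fitted differences were large and whose wing/hinge values were uneven and near background.

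The spread among body wall arrays was near that of CG genes in general, though the rule chose the members on these same values. The members' coefficient of variation there ran from 3.67% to 37.4% with a median of 18.0%, beside a median of 17.9% over the 1622 CG probe sets at this level. In wing/hinge, where the members read lower, the median was 28.4% beside 18.8%. Body wall 1 was the lowest body wall array for 14 of the 31 members (45.2%), beside 37.1% of the 1622. Wing/hinge 2 was the lowest wing/hinge array for 16 of the 31 (51.6%), beside 33.0%.

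The arrays also fall into sets by their brightest values, each with both fragments. The brightest probe set read 24976 or more on body wall 1 and on wing/hinge 1 and 2 (called wide-range arrays here). It read 14881 or less on body wall 2 and 3 and on wing/hinge 3 (narrow-range arrays). Within the narrow-range arrays the members' log2 differences ran from 0.65 to 3.67 with a median of 1.86, and within the wide-range arrays from 0.95 to 4.55 with a median of 2.04. The rule fixes their sign. Neither set gave the larger differences throughout, with 15 probe sets larger in each and CG42749 at 151382_at equal at 2.24. For 3 probe sets the sets differed by more than 1. CG13023 gave 1.86 on narrow-range and 4.16 on wide-range arrays, CG9192 gave 3.22 and 2.17, and CG15353 at 151196_r_at gave 3.18 and 4.26.

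**Figure D5:**
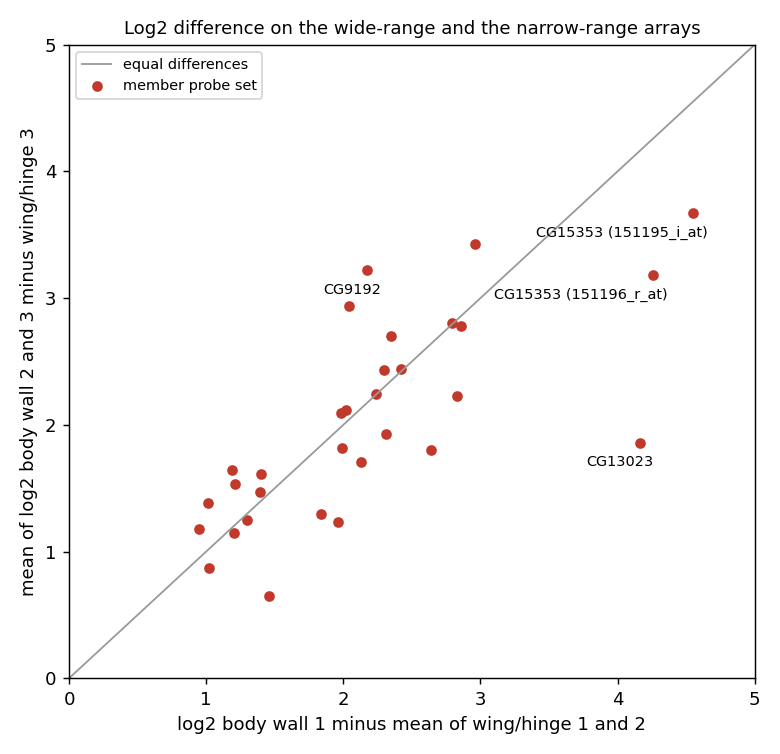
Log2 difference, body wall minus wing/hinge, of each member probe set on the narrow-range arrays (body wall 2 and 3 minus wing/hinge 3, vertical axis) against the wide-range arrays (body wall 1 minus wing/hinge 1 and 2, horizontal axis), with a line of equal differences. Points scatter to both sides of the line, with CG13023 farthest from it at 1.86 and 4.16.

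Markers of other cells that a body wall fragment can hold gave calls in 3 lists. Of 7 adult muscle precursor genes tested, 5 were called higher in body wall (limma adjusted p under 0.05), and their summed intensity was 2605 to 2821 in body wall and 490.7 to 532.9 in wing/hinge. The count was 3 in each fit without 1 array. The mesodermal factor gene twi, for example, read 777.0, 739.2 and 773.2 in body wall, against 39.7, 24.6 and 23.4 in wing/hinge. Of 9 haemocyte genes tested, 1, the collagen gene Col4a1, was called higher in body wall. The haemocyte count fell to 0 without body wall 2 or 3 and without wing/hinge 1 or 2. The summed haemocyte intensity was 1906 to 2231 in body wall and 597.7 to 851.4 in wing/hinge, with srp, NimC1 and lz under 55.1 on every array. Of 11 haemocyte genes on the array, 8 overlapped between the fragments. Col4a1, vkg (also a collagen gene) and srp had every body wall value above every wing/hinge value, beside 8.48% of all probe sets tested. Without both collagen genes, a sum chosen after the values were seen, the arrays read 1236, 560.9 and 791.6 in body wall, against 488.0, 636.5 and 362.4 in wing/hinge, and the fragments overlapped. Tendon genes gave 2 of 5 called higher in body wall, sr and Tsp (1 of 5 in each fit without 1 array), while Lrt, slow and shot overlapped between the fragments, with sums of 2560 to 2944 in body wall and 1301 to 1577 in wing/hinge. The gene sr is also among the notum patterning genes called above, so its call is the same reading in both lists. The part of these cells in the members' differences was not tested.

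The remaining lists gave no calls. Of the 6 tracheal, 4 fat body, 5 larval muscle, 3 neuronal and glial and 2 other-disc genes tested, limma called 0, and at an unadjusted p under 0.05 it found 3 tracheal and 2 fat body genes higher in body wall and 1 tracheal gene higher in wing/hinge. The FGF receptor gene btl, which marks tracheal cells, read 123.5, 80.0 and 37.9 in body wall, against 11.6, 18.5 and 14.2 in wing/hinge. Of the 6 tracheal genes, 3 (btl, serp and verm) had every body wall value above every wing/hinge value, beside 8.48% of all probe sets tested. For 2 (Gasp and pio) every wing/hinge value was the higher, and esg overlapped. Summed tracheal intensity was 12816 to 14290 in body wall and 12156 to 14533 in wing/hinge, and summed larval muscle intensity 4649 to 8455 in body wall and 4659 to 5836 in wing/hinge, so both overlapped between the fragments. Most of the tracheal sum came from verm, toward body wall, and pio, toward wing/hinge. Most of the larval muscle sum came from Act87E at 149844_f_at, at 4124 to 7724 in body wall and 4279 to 5423 in wing/hinge. Whether that probe set reads Act87E alone was not tested, so the sum is not a measure of larval muscle RNA. The next brightest gene, Mlc2, read 302.3 to 488.1 in body wall and 237.0 to 376.4 in wing/hinge. Mlc1 and bt were under 55.1 on every array. Summed fat body intensity was 965.0 to 1113 in body wall and 269.8 to 765.6 in wing/hinge, higher in body wall on every array, and the part of tracheal and fat body cells was not tested either. Neuronal and glial genes were at 164.6 to 226.2 in body wall and 154.1 to 234.8 in wing/hinge, with nSyb, brp and para under 55.1 on every array.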

How the data were processed

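Intensities were used as deposited by the authors. They are linear, 1 value per probe set and array, and already scaled, with 2% trimmed means of 300.0 to 300.1. Summary software is not given in the sources used here. A platform annotation table gave 12443 of 13966 fly probe sets 1 symbol, 327 several and 1196 none. Groups and replicate numbers came from the titles. Values under 20.4, the 20th percentile of the pooled arrays, were raised to it before log2, and probe sets above it on at least 3 of 6 arrays were tested with limma 3.58.1 (R 4.3.3; lmFit and eBayes, no block, Benjamini-Hochberg adjustment). Another 44 control probe sets were left out. In simulated data for this comparison over 11698 probe sets, 14% of 50 probe sets changed by 1 on the log2 scale were recovered. The recovered shares for changes of 2, 3 and 4 were 62%, 68% and 86%, and 6 of 121 calls were false. Whether the recovered shares and the share of false calls hold for the deposited arrays was not tested. Array number limits the precision, and p-values measure the spread between samples that may share a source. Every member may be named. Values per array are given for all 29 member genes. The plan had been narrower, covering members high by ratio or level, at the thresholds, with several probe sets or with neighbours meeting the rule. Members and lists were chosen with earlier results of these data known. Protein and promoter comparisons were not made, as no such sequences were used here.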

Additional observations from a re-analysis of the deposited data

How the results depend on the processing

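The rule gave 31 member probe sets, and the number moves with its limits. It was 66 at a laxer ratio, 22 at a ratio of 2, 51 at a level of 50, 28 at 200 and 262 with means in place of extremes. Quantile normalization gave 33 and median scaling 31, of which 28 and 27 were among the 31. CG6310, CG7841 and CG9737 fell out under both scalings and CG8788 under median scaling. With body wall 1 and 2 averaged it was 48, and without 1 array 41 to 67, where the rule asks less and keeps all 31 by construction. It moved by over 1.5 times without body wall 2 (67), body wall 3 (48), wing/hinge 2 (50) or wing/hinge 3 (55). Of 403 recomputed log2 differences of members, 401 moved by less than the replicate SD. The rule fixes their sign and a replicate block leaves them equal, so this is no sign of stability. CG9192 moved to 1.99 with the floor doubled and CG5391 to 1.07 with median scaling. Of 130 recomputed medians of the marker lists, 10 moved by more than the replicate SD. The wing pouch median of -3.97 moved to -3.10 with the floor doubled and to -3.49 without body wall 2. In fits without 1 array, 4 or 5 wing pouch genes were called higher in wing/hinge and 3 or 4 notum patterning genes higher in body wall. limma called 107 probe sets, 75 with the floor halved, 132 with it doubled, 100 with no filter, 151 with an intensity trend, 103 and 112 with quantile normalization and median scaling, 52 with the split by brightest values as a block, 34 with body wall 1 and 2 averaged and 31 to 44 without 1 array, under a count of 107 for each of the 6 arrays left out. With the replicate number as a block (replicate block) it called 10. Of the members it called 15, 10 with the floor halved, 25 with it doubled or with an intensity trend, 5 with the split as a block, 3 with body wall 1 and 2 averaged, 1 with the replicate block and 2 to 8 without 1 array. Same-numbered arrays deviated together at correlations of 0.06, -0.16 and 0.19, so the numbers were not taken as pairs. Each fit without 1 array leaves 5 arrays and fewer degrees of freedom. Signal over background limits the wing/hinge values, of which 20 of 93 lay under 55.1. The share of member proteins with a hydrophobic start was not run, because no protein sequences were used here.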

Other observations

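The rule was also met by 11 probe sets that name no single gene, 10 with no symbol and 141531_at with several. The highest ratios among them were 6.40 for 142813_at, which read 313.5, 468.4 and 359.5 in body wall, against 42.1, 28.2 and 49.0 in wing/hinge, and 3.59 for 153531_at, which read 1579, 1050 and 1136 in body wall, against 203.0, 292.4 and 149.3 in wing/hinge. These are described by probe set only.

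A further 51 CG probe sets passed the ratio of 1.5 but not the level of 100. The highest ratio among those whose lowest body wall value reached the control 95th percentile was 3.63, for CG10947, which read 102.3, 101.0 and 74.5 in body wall, against 15.5, 9.8 and 20.5 in wing/hinge. CG14759 read 76.3, 81.3 and 84.5 in body wall, against 20.5, 6.1 and 31.6 in wing/hinge. At such levels the wing/hinge values lie in the range of the control probe sets, so the size of these differences is not settled.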
